A study of Mus musculus with 6 samples.

Results

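The coagulation and fibrinolysis genes of the liver were examined as 35 genes, found by their symbols among the 56674 rows of the count table. They comprised 19 genes counted as acting toward clotting and 8 that restrain it. A further 7 belong to the system that dissolves clots or hold that system back. The last is Fgl1, a relative of the fibrinogen genes that is not a clotting factor. The libraries came from livers of male C57BL/6 mice, an inbred laboratory strain, reared for 71 weeks under a controlled temperature on 1 of 2 diets. The PB-MP group (3 libraries) ate chow with added polypropylene black microplastic (PB-MP), whose dose and particle size the labels do not give, and the control group (3 libraries) ate normal chow. The diets are those of the sample titles and treatment labels, while the treatment protocol text names PB-MP chow for all 6 samples. The comparison addressed whether long dietary exposure to PB-MP alters gene expression in the liver. Whether each library is a different animal is not stated in the labels, so a p-value here sets the diets against a spread among libraries that may be partly technical.

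Blood clots when a cascade of serine proteases turns prothrombin into thrombin, which cuts fibrinogen into fibrin. Hepatocytes secrete most of these proteins, and several of them work only after a vitamin K-dependent enzyme has modified them. Serpins and the protein C pathway restrain thrombin, and plasmin, released from plasminogen, later dissolves the fibrin. Factor VIII is made mainly by sinusoidal endothelial cells, and tissue factor, the urokinase receptor and the plasminogen activators are low in healthy hepatocytes.

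The fibrinogen genes are shown by their promoters because they lie side by side in the genome, encode chains that are assembled together and together took 35% to 39.8% of the reads of the 35 genes in every library. In human liver cells, these genes are known to respond to interleukin-6 during inflammation. The sequences are from RefSeq on GRCm38.p6, each running from 250 bases before the annotated start to 50 bases after it, and capitals mark matches on either strand to the interleukin-6 response core CTGGGAA. Fga lies at chr3:83025903-83026202 on the plus strand, Fgb at chr3:83049814-83050113 on the minus strand and Fgg at chr3:83007474-83007773 on the plus strand.
Fga: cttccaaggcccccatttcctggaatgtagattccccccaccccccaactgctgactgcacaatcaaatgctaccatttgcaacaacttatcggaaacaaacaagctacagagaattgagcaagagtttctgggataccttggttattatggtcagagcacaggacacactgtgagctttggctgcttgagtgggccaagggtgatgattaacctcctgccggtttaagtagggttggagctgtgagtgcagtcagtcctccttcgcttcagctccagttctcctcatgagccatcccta
Fgb: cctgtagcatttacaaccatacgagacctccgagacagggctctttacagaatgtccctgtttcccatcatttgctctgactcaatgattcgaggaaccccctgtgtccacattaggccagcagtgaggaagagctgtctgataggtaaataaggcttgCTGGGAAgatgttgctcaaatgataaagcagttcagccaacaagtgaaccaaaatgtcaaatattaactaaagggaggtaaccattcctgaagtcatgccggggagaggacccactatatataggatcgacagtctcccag
Fgg: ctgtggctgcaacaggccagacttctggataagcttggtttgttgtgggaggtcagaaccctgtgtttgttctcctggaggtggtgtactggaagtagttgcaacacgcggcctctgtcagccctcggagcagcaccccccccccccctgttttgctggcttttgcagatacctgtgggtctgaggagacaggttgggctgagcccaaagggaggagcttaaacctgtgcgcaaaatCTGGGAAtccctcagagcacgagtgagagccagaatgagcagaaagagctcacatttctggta
Fgb had a match that began 91 bases before the start and Fgg one that began 13 bases before it, while these letters do not occur in the Fga window. Promoters were listed for 28 of the 35 genes (30 windows), of which 5 genes held the core. Of all 32851 promoters in the table, 11.1% held it. A match of this kind describes the letters alone.

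The PB-MP libraries held 70603124 to 90483598 counted reads and the control libraries 68357478 to 112566641. Levels are CPM, read counts scaled to a common depth by TMM-scaled library size, where TMM is edgeR's scaling by the trimmed mean of M-values, and 3 reads correspond to 0.0267 to 0.0439 unscaled CPM. Messenger RNAs of the mitochondrial genome took 8.73% to 10.1% of reads in the PB-MP libraries and 14.2% to 15.1% in the control libraries. The 18S ribosomal RNA row took 0.707% to 9.42% of reads in the PB-MP libraries and 1.15% to 11.2% in the control libraries. PB-MP replicate 3 stood apart by coding length. Against the other 2 PB-MP libraries, genes averaging 10 CPM or more were shifted by a median log2 of 0.27 where the coding sequence was under 1 kb (2272 genes) and by -0.58 where it was over 4 kb (377 genes). In the other 5 libraries the median of the over 4 kb genes ran from -0.09 to 0.33 by the same measure. The 6 hepatocyte markers (Alb, Apoa1, Ttr, Cps1, Serpina1a and Tat) were present in every library, at a summed 62270 to 72240 CPM in PB-MP and 58200 to 69910 CPM in control libraries.

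Most of the clotting genes had small estimated differences on the PB-MP diet, and Fgl1 and Serpinc1 differed by unadjusted p. Of the 35 genes, 0 passed an adjusted p of 0.05 in edgeR, as did 0 (0%) of all 17871 genes tested. At an unadjusted p below 0.05 there were 2 of the 35, Fgl1 and Serpinc1, both higher in PB-MP, against a background of 12.1% of all genes, of which 7.35% higher and 4.74% lower. DESeq2 called 1 of the 35 at an adjusted p below 0.05, Fgl1 (background 3.02%), and limma-voom called 0. The libraries of the diets did not overlap for 4 of the 35, all higher in PB-MP (Fgl1, Serpinc1, Fgb and Fgg), against 19.8% of all genes, of which 11.4% higher and 8.49% lower. The median log2 fold change, PB-MP over control, was 0.04 over the 35 genes and 0.01 over all genes. In bulk RNA, fewer cells of a type and less RNA per cell cannot be told apart.

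The intervals say how large a difference these libraries leave possible. For 27 of the 35 genes the 95% interval of the log2 fold change fitted between -1 and 1, against 45.7% of all genes. Among genes averaging 10 CPM or more this held for 26 of the 28 members of the list, Fgl1 included, and for 76.4% of all 6681 such genes. The exceptions among the 28 were Fgl1 and Proz. The other 7 genes, F3, F8, F13a1, Tfpi, Plat, Plau and Plaur, had means below 10 CPM, and for 6 of them a 2-fold difference was not excluded.

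**Figure D1:**
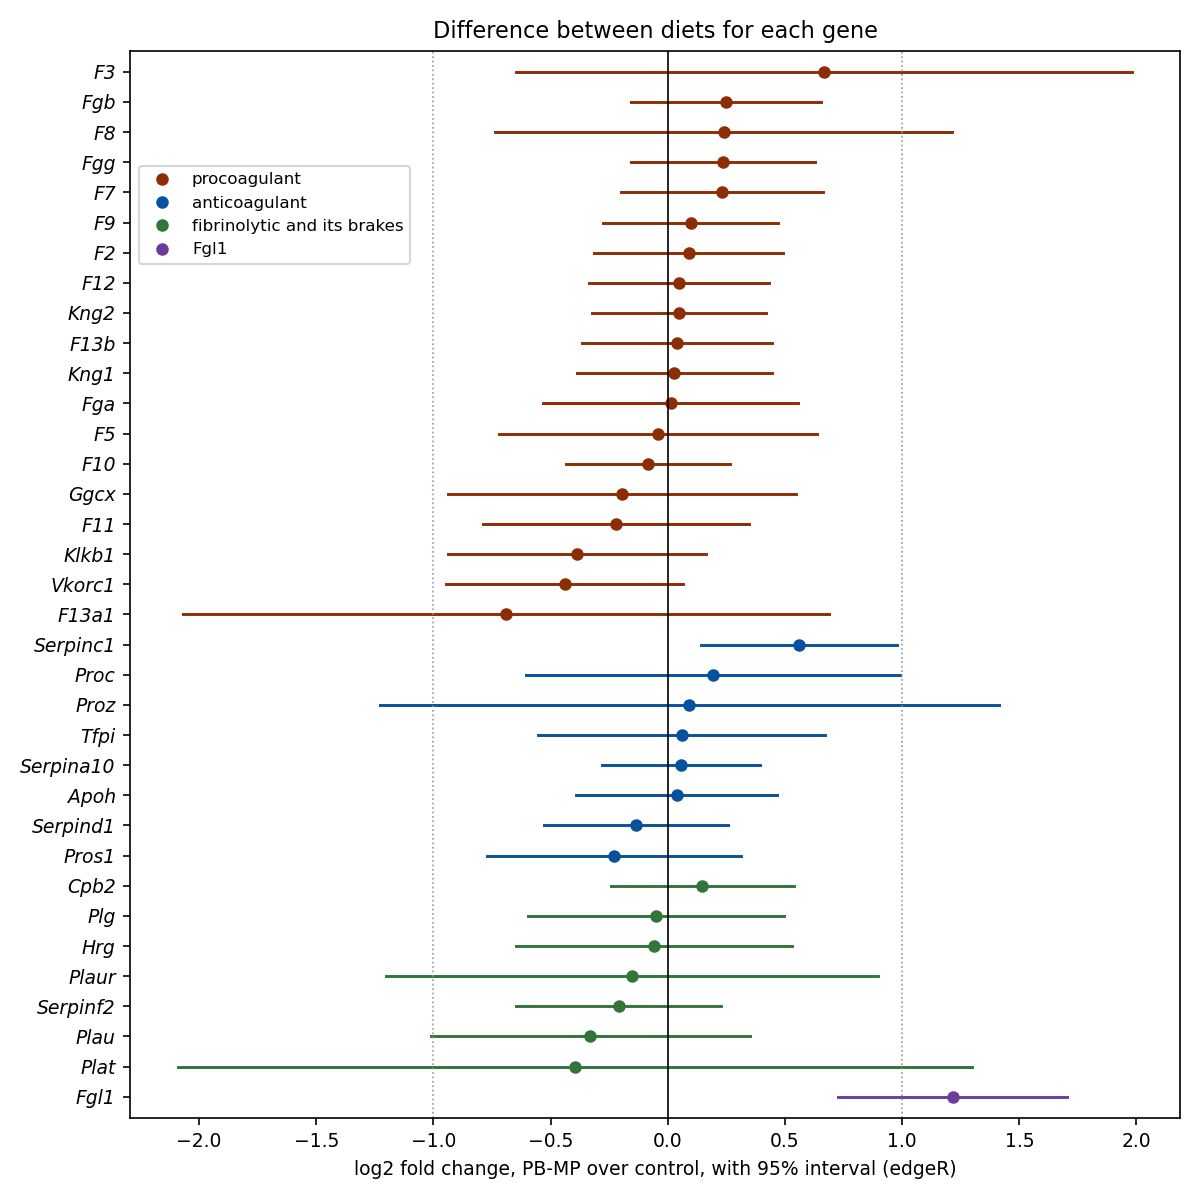
Log2 fold change of each of the 35 genes (x axis, PB-MP over control) with its 95% interval from edgeR, ordered by size within class and coloured by class; dotted lines mark -1 and 1. Serpinc1 and Fgl1 are the genes whose interval excludes 0, and the widest intervals belong to F13a1, Plat, Proz and F3.

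Fibrinogen, the precursor of fibrin, is built from an alpha, a beta and a gamma chain encoded by Fga, Fgb and Fgg. Fgb had 2991, 3301 and 3131 CPM in PB-MP replicates 1, 2 and 3, against 2766, 2633 and 2536 CPM in control replicates 1, 2 and 3. Fgg had 2119, 2237 and 2380.0 CPM in PB-MP and 1981, 1884 and 1855 CPM in control libraries. For both genes every PB-MP library lay above every control library. Neither gene passed, at a log2 fold change of 0.25 ± 0.17 (SE) for Fgb and 0.24 ± 0.17 for Fgg (edgeR adjusted p = 0.602 and 0.609). Their 95% intervals ran from -0.16 to 0.66 and from -0.16 to 0.63.

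Fga, unlike Fgb and Fgg, overlapped between the diets. It had 2953, 3288 and 2062 CPM in PB-MP and 3041, 2649 and 2545 CPM in control libraries (0.01 ± 0.23, edgeR adjusted p = 0.988). PB-MP replicate 3 was the lowest library for Fga and was not the lowest for Fgb or Fgg. Per kilobase of coding sequence, the ratio of Fga to Fgb was 0.602, 0.607 and 0.401 in PB-MP and 0.670, 0.613 and 0.612 in control libraries, while the ratio of Fgg to Fgb was 0.748 to 0.838 and 0.790 to 0.807. Fga has the longest coding sequence of the 3 chains, 2367 bases against 1443 for Fgb and 1308 for Fgg. By whole transcript Fgb is the longest, 3810 bases against 2587 for Fga and 1695 for Fgg. The relation of these levels to length was not tested. Without PB-MP replicate 3 the log2 fold change of Fga was 0.18, beside 0.25 for Fgb and 0.19 for Fgg.

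**Figure D2:**
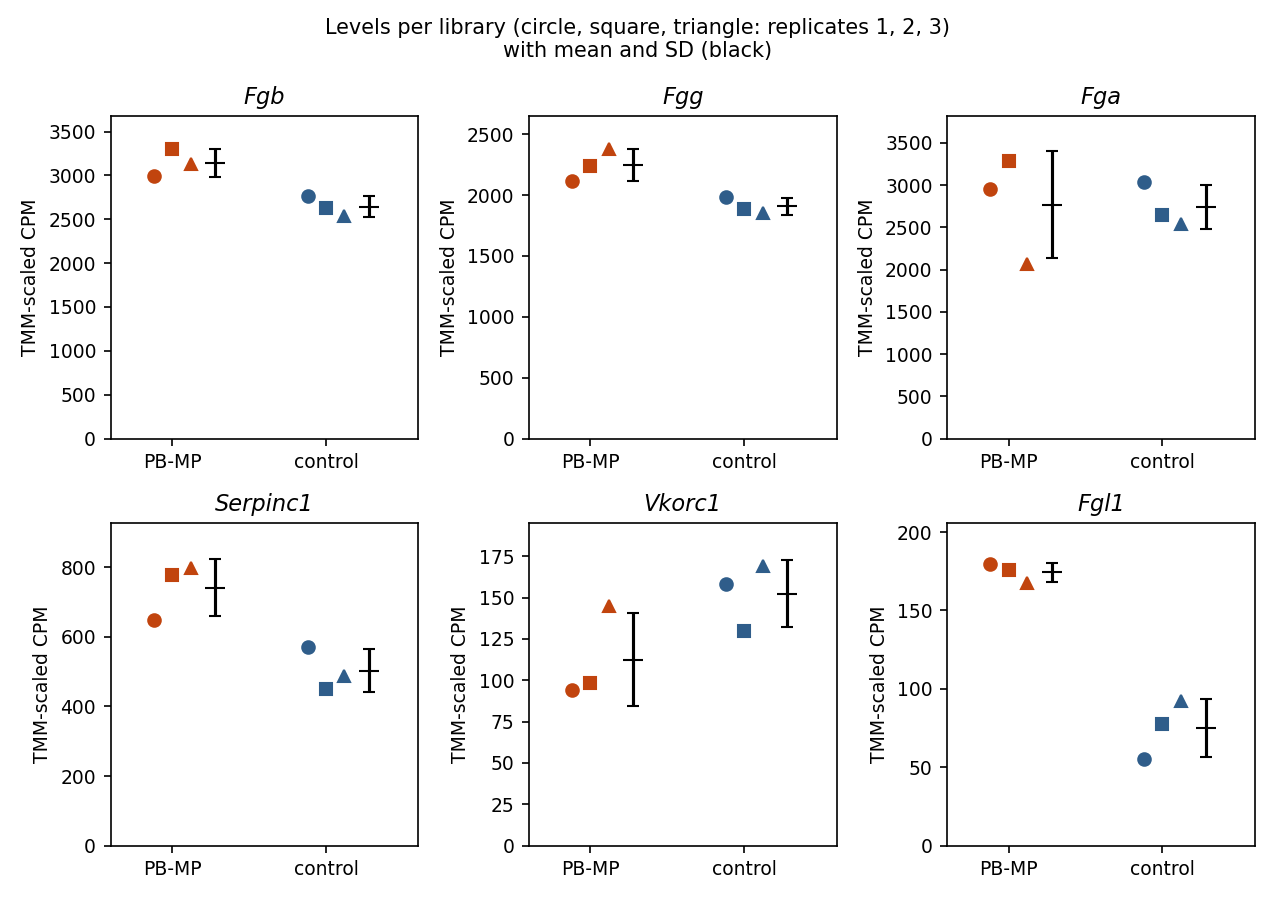
Levels of Fgb, Fgg, Fga, Serpinc1, Vkorc1 and Fgl1 in TMM-scaled CPM (y axis from 0) for each PB-MP and control library, with the mean and SD of the 3 libraries beside the points. Every PB-MP library lies above every control library for Fgb, Fgg, Serpinc1 and Fgl1, and the diets overlap for Fga and Vkorc1.

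Among F2, F5, F7, F9 and F10, which lead to thrombin, estimates were near 0 apart from 0.23 for F7. F2, which encodes prothrombin, had 1428, 1552 and 1372 CPM in PB-MP and 1442, 1213 and 1435 CPM in control libraries (0.09 ± 0.17, edgeR adjusted p = 0.868). The vitamin K-dependent proteases F7, F9 and F10 had log2 fold changes of 0.23 ± 0.18, 0.10 ± 0.16 and -0.08 ± 0.15. F5, the cofactor of factor Xa, had 469.9, 520.3 and 240.4 CPM in PB-MP and 397, 429 and 441 CPM in control libraries. Its low value in PB-MP replicate 3 decided its sign, as the estimate was -0.04 ± 0.29 with all libraries and 0.23 without that replicate. With a coding sequence of 6549 bases, F5 was the longest of the 28 genes above 10 CPM.

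Genes of the contact pathway, which starts clotting on charged surfaces, had estimates near 0 or below it. F12, the protease of its first step, averaged 409 ± 29.2 CPM in PB-MP and 396 ± 47.7 CPM in control libraries (SD, n = 3 each). Kng1 and Kng2, which encode kininogens, the carriers of prekallikrein and factor XI, had log2 fold changes of 0.03 ± 0.18 and 0.05 ± 0.16. They are close copies, as 18.2% of the 50-base words of Kng2 also occur in Kng1, so reads of the pair may be split by the counting. F11 was at -0.22 ± 0.24. Klkb1, which encodes prekallikrein, averaged 238 ± 54.8 CPM in PB-MP and 312 ± 56.0 CPM in control libraries (-0.39 ± 0.23, edgeR adjusted p = 0.543). It shares 42.7% of its 50-base words with the overlapping gene Gm45753, which held at most 0.241% of the Klkb1 read count.

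Vkorc1 and Ggcx, counted here among the 19 procoagulant genes, serve both arms of the system. They encode the reductase that recycles vitamin K, the target of warfarin, and the carboxylase that uses it to modify prothrombin, factors VII, IX and X and proteins C, S and Z. Vkorc1 had 94.1, 98.4 and 145 CPM in PB-MP and 158, 130.0 and 169 CPM in control libraries. PB-MP replicates 1 and 2 were below every control library, and PB-MP replicate 3 lay among them (-0.44 ± 0.22, edgeR adjusted p = 0.458). Without PB-MP replicate 3 the log2 fold change was -0.67 (edgeR adjusted p = 0.323), with an unadjusted p of 0.00703. Vkorc1 has the shortest coding sequence of the 35 genes, 483 bases, and 50.5% of its 50-base words are shared with the annotated read-through gene Gm21974. That gene had 0, 0 and 823 reads in PB-MP and 406, 0 and 458 reads in control libraries, at most 5.83% of the Vkorc1 reads. Ggcx averaged 23.9 ± 8.01 CPM in PB-MP and 27.3 ± 8.56 CPM in control libraries (SD, n = 3 each). The median log2 fold change was 0.04 over the 19 procoagulant genes and 0.05 over the 17 without Vkorc1 and Ggcx.

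Factor XIII cross-links fibrin, and its subunits come from different cells. F13b, the hepatocyte subunit, had a log2 fold change of 0.04 ± 0.17. F13a1, known from platelets and macrophages, had 22, 30 and 16 reads in PB-MP and 13, 44 and 41 reads in control libraries, too few to resolve a difference (-0.69 ± 0.59). The 5 platelet and megakaryocyte markers (Pf4, Ppbp, Itga2b, Gp1ba and Gp9) summed to 3.87 to 5.52 CPM in PB-MP and 4.63 to 6.04 CPM in control libraries, with none of them at 0.

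Tissue factor and factor VIII, encoded by F3 and F8, were among the low genes, and control replicate 1 was the lowest library for both. F3 had 3.27, 1.91 and 3.14 CPM in PB-MP and 0.521, 2.13 and 2.59 CPM in control libraries (0.67 ± 0.56, edgeR adjusted p = 0.672). F8 had 7.71, 7.61 and 5.40 CPM in PB-MP and 2.77, 8.98 and 5.81 CPM in control libraries (0.24 ± 0.41, edgeR adjusted p = 0.851). Without control replicate 1 the estimates were 0.22 for F3 and -0.10 for F8. The 6 sinusoidal endothelial markers (Stab2, Lyve1, Clec4g, Fcgr2b, Oit3 and Kdr) summed to 56.2 to 106.8 CPM in PB-MP and 78.7 to 96.8 CPM in control libraries, and 0 of the 6 had an unadjusted p below 0.05. Single markers varied widely between libraries, Stab2 from 2.51 to 31.1 CPM in PB-MP and from 4.29 to 23.3 CPM in control libraries, and the part of these cells in the F3 and F8 values was not tested.

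**Figure D3:**
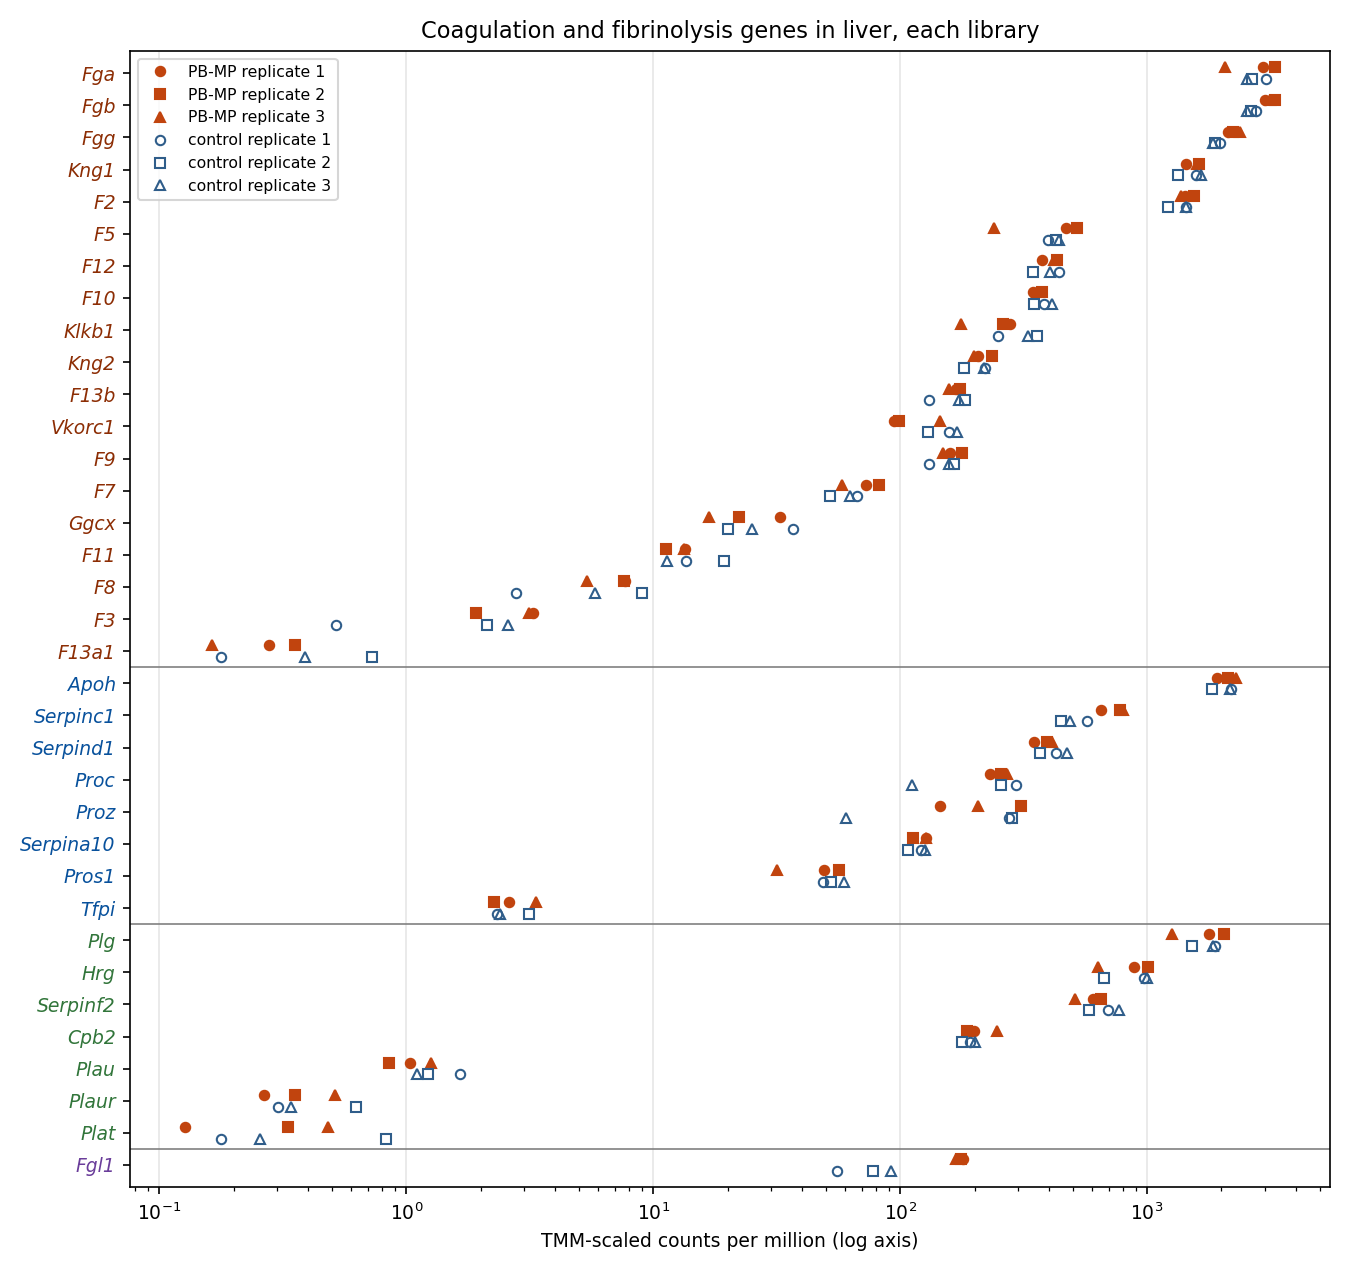
Level of every one of the 35 genes in each library (x axis, TMM-scaled CPM, log scale), with filled PB-MP symbols above open control symbols and lines between procoagulant, anticoagulant and fibrinolytic genes and Fgl1. The highest levels belong to Fga and Fgb and the lowest to F13a1, Plat and Plaur, and control replicate 3 lies apart for Proc and Proz.

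Among the natural anticoagulants, antithrombin was the gene with the clearest difference. Serpinc1, which encodes antithrombin, the main plasma inhibitor of thrombin and factor Xa, had 647, 778 and 797 CPM in PB-MP replicates 1, 2 and 3, against 570.3, 449 and 487 CPM in control replicates 1, 2 and 3. The PB-MP libraries all lay above the control libraries, by 1.48-fold in the fitted means (log2 fold change 0.56 ± 0.18, 95% interval 0.14 to 0.98). The gene did not pass over all genes tested (edgeR adjusted p = 0.319, unadjusted p = 0.0154, DESeq2 adjusted p = 0.153), and it ranked 865 of 17871 by p. Its unadjusted p was no longer below 0.05 without PB-MP replicate 2 (log2 fold change 0.52), control replicate 2 (0.46) or control replicate 3 (0.53), nor with both PB-MP replicate 3 and control replicate 2 left out (0.42). Per kilobase of coding sequence, the ratio of Serpinc1 to F2 was 0.602, 0.667 and 0.772 in PB-MP and 0.526, 0.492 and 0.451 in control libraries. Serpinc1 shares 2942 bases of exon with Zbtb37 on the opposite strand in the annotation, and without the strand setting their reads cannot be told apart. Zbtb37, named after its values were seen, had 1433, 1130 and 1429 reads in PB-MP and 401, 491 and 419 reads in control libraries, 0.818% to 2.81% of the Serpinc1 reads.

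The other inhibitors of the cascade had estimates near 0. Serpind1, which encodes heparin cofactor II, had a log2 fold change of -0.14 ± 0.17, and Serpina10, the protein Z-dependent protease inhibitor, 0.05 ± 0.14. Tfpi, the inhibitor of the tissue factor pathway, stood at 2.74 ± 0.550 CPM in PB-MP and 2.63 ± 0.453 CPM in control libraries (SD, n = 3 each). Apoh, an abundant plasma protein that binds phospholipids and whose part in clotting is debated, averaged 2110 ± 191 CPM in PB-MP and 2054 ± 199 CPM in control libraries. Per kilobase of coding sequence Apoh stood at 2039 ± 184 CPM per kb in PB-MP and 1985 ± 192 CPM per kb in control libraries, beside 2177 ± 107.5 and 1833 ± 80.1 for Fgb, 1717 ± 99.6 and 1458 ± 50.3 for Fgg, and 1169 ± 268 and 1160.0 ± 111 for Fga.

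Among the genes above 10 CPM, protein C and protein Z varied most between control libraries. Proc, whose product with its cofactor protein S inactivates factors V and VIII, had 232, 256 and 269.9 CPM in PB-MP and 294, 257 and 112 CPM in control libraries. Proz, the vitamin K-dependent cofactor of Serpina10, had 145, 307 and 206 CPM in PB-MP and 275, 283 and 60.3 CPM in control libraries. Control replicate 3 was the lowest of the 6 libraries for both genes. Its log2 difference from the other control libraries was -1.29 for Proc and -2.20 for Proz, and 0.09 for F7 and 0.17 for F10, which lie with Proz on chromosome 8. The log2 fold changes of Proc and Proz were 0.19 ± 0.34 and 0.09 ± 0.56 with all libraries, and -0.13 and -0.35 without control replicate 3. Pros1, which encodes protein S, had 49.1, 56.3 and 31.8 CPM in PB-MP and 48.9, 52.4 and 59.4 CPM in control libraries (-0.23 ± 0.23).

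The fibrinolytic genes gave no call in either direction. Plg, which encodes plasminogen, had 1782, 2038 and 1257 CPM in PB-MP and 1876, 1526 and 1853 CPM in control libraries (-0.05 ± 0.23, edgeR adjusted p = 0.949). Its activators are scarce in liver RNA. Plat, which encodes tissue plasminogen activator, had 10, 28 and 47 reads in PB-MP and 13, 50 and 27 reads in control libraries. Plaur, the urokinase receptor, had 21, 30 and 50 reads in PB-MP and 22, 38 and 36 reads in control libraries. At such counts the 95% intervals ran from -2.09 to 1.30 for Plat and from -1.20 to 0.90 for Plaur. Plau, which encodes urokinase, averaged 1.05 ± 0.206 CPM in PB-MP and 1.32 ± 0.286 CPM in control libraries (-0.33 ± 0.29).

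Other genes of the class act as brakes on fibrinolysis. Serpinf2 encodes alpha2-antiplasmin, the plasmin inhibitor, and averaged 588 ± 72.3 CPM in PB-MP and 680 ± 94.1 CPM in control libraries (-0.21 ± 0.19). Cpb2 encodes the carboxypeptidase that trims plasminogen-binding sites from fibrin, and had a log2 fold change of 0.15 ± 0.17. Hrg encodes histidine-rich glycoprotein, which binds plasminogen and heparin, and averaged 843 ± 191 CPM in PB-MP and 879 ± 183 CPM in control libraries. Of the 7 genes of this class 6 had estimates below 0, beside 8826 of all 17871 genes. The median log2 fold change of the class was -0.15, beside 0.01 for all genes. Those 6 genes are Plg, the brakes Serpinf2 and Hrg, and Plat, Plau and Plaur, which rest on few reads.

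Fgl1 had the largest difference of the 35 genes. It encodes a protein of the fibrinogen family that hepatocytes secrete, that is known to rise in liver regeneration and the acute phase, and that binds the immune receptor LAG-3, without forming clots. It had 179.8, 176 and 168 CPM in PB-MP replicates 1, 2 and 3, against 55.5, 77.8 and 92.0 CPM in control replicates 1, 2 and 3. All PB-MP libraries lay above all control libraries, and the fitted difference was 2.32-fold (log2 fold change 1.21 ± 0.21, 95% interval 0.73 to 1.70). The gene ranked 39 of 17871 by p (unadjusted p = 0.000574) and did not pass in edgeR over all genes (adjusted p = 0.207), while DESeq2 gave an adjusted p of 0.000363. With each library left out in turn the estimate stayed between 1.03 and 1.39. No 50-base word of Fgl1 occurred in another annotated gene. The fibrinogen chains did not differ to that degree, since the upper end of the interval was 0.66 for Fgb and 0.63 for Fgg.

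Markers of other cell types were set beside these genes, and none passed an adjusted p of 0.05 in edgeR. Of all genes tested, 12.1% had an unadjusted p below 0.05, 7.35% higher in PB-MP and 4.74% lower. Of 6 Kupffer cell markers (Clec4f, Vsig4, Timd4, Cd5l, Marco and Adgre1), 3 had an unadjusted p below 0.05, all higher in PB-MP, and the 6 summed to 101.8 to 225.5 CPM in PB-MP and 80.3 to 103.0 CPM in control libraries. Of 4 tested neutrophil markers (S100a8, S100a9, Csf3r and Retnlg) 3 had an unadjusted p below 0.05, all higher in PB-MP, at sums of 3.04 to 5.48 CPM in PB-MP and 1.17 to 1.74 CPM in control libraries, while the fifth, Ly6g, was at 0 in every library. PB-MP replicate 3 had the highest Kupffer and neutrophil sums. Stellate, adipocyte and erythroid markers had 1 such gene each, lower, lower and higher in PB-MP. Of 5 monocyte and macrophage markers (Lyz2, Ccr2, Itgam, Cx3cr1 and Ly6c2) 0 had an unadjusted p below 0.05 and 3 had estimates below 0, with a median log2 fold change of -0.54 and sums of 22.5 to 128.0 CPM in PB-MP and 22.3 to 47.9 CPM in control libraries. Of 5 cholangiocyte markers 0 had an unadjusted p below 0.05. Of 6 hepatocyte markers 0 had an unadjusted p below 0.05. The part of these cell types in the differences of Fgl1, Serpinc1, Fgb and Fgg was not tested.

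Within the PB-MP group, the library that stood apart by length was also far from its group for several clotting genes. PB-MP replicate 3 was the lowest of its group for 14 of the 28 genes above 10 CPM and the highest for 7, beside 46.2% and 38% of all genes at that level, so the count is near the background. Control replicate 2 was the lowest of its group for 16 of the 28, beside 48.8% of all genes. PB-MP replicate 3 was also compared with the mean of PB-MP replicates 1 and 2. Its log2 difference was -1.04 for F5, -0.72 for Pros1, -0.67 for Ggcx and -0.61 for Klkb1. It was -0.60 for Fga and Plg and -0.58 for Hrg. PB-MP replicate 3 was higher by 0.59 for Vkorc1 and 0.37 for Cpb2. Its log2 difference was -0.09 for Fgl1, 0.17 for Serpinc1, -0.01 for Fgb and 0.13 for Fgg, values that the lack of overlap between the diets already limits. Without this library the log2 fold changes were 1.24 for Fgl1 and 0.50 for Serpinc1. Those of F5, Plg, Hrg and Ggcx turned from below 0 to 0.23, 0.12, 0.11 and 0.00. Those of Tfpi and Apoh turned from above 0 to -0.11 and -0.03.

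**Figure D4:**
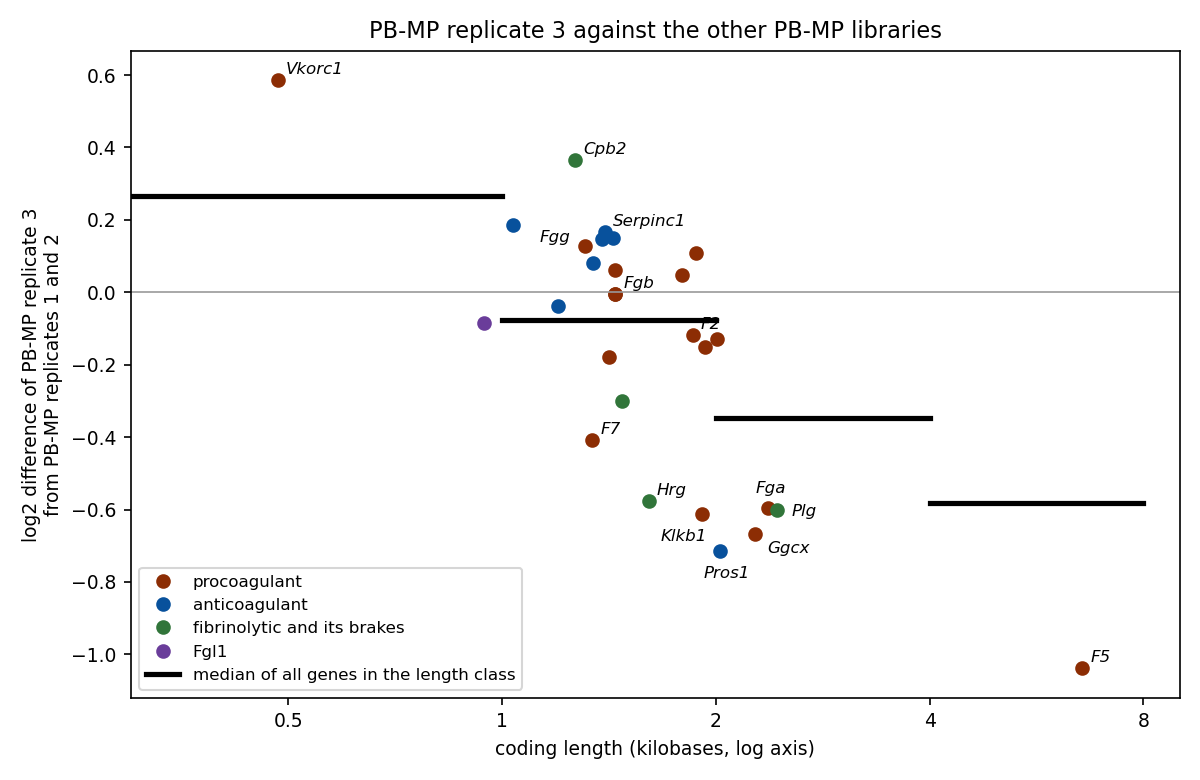
Log2 difference of PB-MP replicate 3 from PB-MP replicates 1 and 2 (y axis, on CPM + 0.5) against coding length (x axis, log scale) for the 28 genes averaging 10 CPM or more, with black bars at the median of all such genes in 4 length classes. F5 lies at -1.04, below the median of its length class (-0.58), and Vkorc1 at 0.59, above that of its own (0.27). Fgl1 (-0.09), Hrg (-0.58) and Klkb1 (-0.61) lie below the medians of their length classes (0.27, -0.08 and -0.08). The relation to length among these genes was not tested.

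Summed over each class, the scaled levels overlapped between the diets. The 19 procoagulant genes summed to 13159, 14405 and 12479 CPM in PB-MP and 13043, 11958 and 12435 CPM in control libraries. The 8 anticoagulant genes summed to 3465, 4029.6 and 4140.0 CPM in PB-MP and 3913, 3344 and 3482 CPM in control libraries. The 7 fibrinolytic genes summed to 3473, 3886 and 2651 CPM in PB-MP and 3733, 2955 and 3822 CPM in control libraries. As an unscaled share of reads, the 35 genes took 2.27%, 2.34% and 2.09% in PB-MP and 1.99%, 1.63% and 1.85% in control libraries, without overlap. With mitochondrial and 18S ribosomal RNA rows left out, the shares were 2.66%, 2.93% and 2.33% in PB-MP and 2.42%, 2.25% and 2.24% in control libraries, and the diets overlapped.

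Of 34 other hemostasis genes, chosen for their roles, 31 were tested and 0 passed an adjusted p of 0.05 in edgeR. At an unadjusted p below 0.05 there were 2 of the 31, both lower in PB-MP (background 12.1%, of which 4.74% lower). Anxa2, a cell-surface receptor for plasminogen and its activator, had 10.3, 7.27 and 10.3 CPM in PB-MP and 19.7, 13.8 and 17.6 CPM in control libraries (-0.88 ± 0.23, edgeR adjusted p = 0.250, DESeq2 adjusted p = 0.0361). Thbd, which encodes thrombomodulin, the endothelial protein that turns thrombin toward protein C, had 0.875, 1.39 and 0.954 CPM in PB-MP and 1.59, 2.13 and 2.16 CPM in control libraries (-0.87 ± 0.29, edgeR adjusted p = 0.333). The next by p was F2rl2, a thrombin receptor, at 0.355, 0.390 and 0.246 CPM in PB-MP and 0.165, 0.198 and 0.0761 CPM in control libraries. Anxa2 kept an unadjusted p below 0.05 in 18 of 18 alternatives and Thbd in 13 of 18. The median log2 fold change of the 31 genes was -0.09. Vwf, the carrier of factor VIII, was at 0.08 ± 0.28.

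Of 23 regulators of hepatic clotting genes, all were tested, 0 passed an adjusted p of 0.05 in edgeR, and 5 had an unadjusted p below 0.05 (background 12.1%), 4 higher in PB-MP (7.35%) and 1 lower (4.74%). Of the 5, 4 are described here. Their unadjusted p stayed below 0.05 in 9 of 18 alternatives for Nr1h4 and Cebpb, 11 for Foxa1 and 13 for Esr1. The bile acid receptor Nr1h4 and the estrogen receptor Esr1 had log2 fold changes of 0.40 ± 0.16 and 0.71 ± 0.26 (edgeR adjusted p = 0.389 and 0.353). Foxa1 had 0.951, 1.01 and 12.4 CPM in PB-MP and 0.494, 0.264 and 0.827 CPM in control libraries, so that its estimate of 3.16 was 0.87 without PB-MP replicate 3. Cebpb, a factor of the acute phase, was the 1 of the 5 that was lower in PB-MP, with 31.0, 29.0 and 51.4 CPM in PB-MP and 83.5, 42.9 and 60.5 CPM in control libraries (-0.75 ± 0.32, edgeR adjusted p = 0.413). The interleukin-6 pathway genes Il6ra, Il6st, Stat3 and Socs3 had log2 fold changes of -0.50 ± 0.27, -0.16 ± 0.28, -0.16 ± 0.24 and 0.39 ± 0.22. The median of the 23 was -0.09.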

How the data were processed

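Poly(A)-selected liver RNA was sequenced in 6 directional libraries, per the labels' protocols. The deposited values are whole-number read counts, not normalized, in 56674 rows named by gene symbol. GRCm39 and bcl2fastq are named in the submitters' processing notes; the aligner, counter, annotation and strand setting are not stated there or in the labels. No row lacked a gene name.

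Genes were kept by filterByExpr (minimum count 10, minimum total 15), scaled by TMM and tested with the quasi-likelihood test of edgeR 4.0.16 in R 4.3.3, with Benjamini-Hochberg adjustment over 17871 genes and a threshold of 0.05. All 35 members passed the filter. The SE is the log2 fold change divided by the square root of F. No pair of libraries agreed within sampling noise (chi-square per degree of freedom at least 203). Alternatives used DESeq2 1.42.0, limma 3.58.1, other scalings and filters, a replicate block and left-out libraries.

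Coding lengths, overlaps and shared 50-base words came from GENCODE M21 and promoters from RefSeq, both on GRCm38 and matched by symbol, so no read was placed by them. All 35 members are named, with every library for those with an unadjusted p below 0.05, non-overlapping groups or a preset role, and of the other lists those with an unadjusted p below 0.05, at least 3. The members and lists were chosen with earlier results of these data known. A regulator that this rule names is not reported here.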

Additional observations from a re-analysis of the deposited data

How the results depend on the processing

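The call for no member at an adjusted p below 0.05 held in edgeR under every scaling, filter, left-out library and pair of libraries run, and in limma-voom; DESeq2 called 1 member (Fgl1) and 540 genes in all. The number of all genes called in edgeR ran from 0 to 1 with 1 library left out and was 2 without control 2 and PB-MP 3 together. Library size only, which moves the median of all genes to 0.23, gave 4 members with an unadjusted p below 0.05 (Fgl1, Serpinc1, Fgb and Fgg). In that setting 2825 of all 17871 genes had one, against 2161 in the main fit. Leaving out 1 library gave 1 to 3 members, beside 1472 of 18593 to 3338 of 18738 genes. Serpinc1 kept an unadjusted p below 0.05 in 14 of 18 alternatives and Fgl1 in 18 of 18. Vkorc1 gained one in 3: with quality weights (-0.65), without PB-MP 3 (-0.67) and without control 2 and PB-MP 3 together (-0.78). In these settings 4185 of 17871, 2257 of 18343 and 4316 of 18115 genes had one. Medians for procoagulant, anticoagulant and fibrinolytic genes were 0.26, 0.28 and 0.08 with library size only; without control 2 and PB-MP 3 together they were 0.13, -0.01 and -0.07, the fibrinolytic median was -0.03 with at least 1 CPM in 3 libraries, and with 1 library left out they ran from -0.04 to 0.09, -0.03 to 0.10 and -0.21 to -0.09.

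Other hemostasis genes with an unadjusted p below 0.05 numbered 5 with library size only and without control 2 and PB-MP 3 together, 4 with upper quartile scaling, TMM without mitochondrial and 18S rows, no filter or quality weights, and 1 to 4 with 1 library left out. Regulators numbered 3 in DESeq2 and with the replicate block, 2 without control 2 and PB-MP 3 together, and 2 to 6 with 1 library left out. All genes below it numbered 2825 of 17871 with library size only and 4316 of 18115 without control 2 and PB-MP 3 together. Upper quartile scaling gave 2157 of 17871, TMM without those rows 2132 of 17804 and no filter 2763 of 30550. Quality weights gave 4185, DESeq2 2351 and the replicate block 1836 of 17871. Leaving out 1 library gave 1472 of 18593 to 3338 of 18738. Deviations of libraries with the same replicate number had correlations of -0.09, 0.09 and 0.08 for numbers 1, 2 and 3. With 3 libraries per diet these values cannot show whether a number marks a shared batch, which the labels do not state. The replicate block left 0 members called and 2 with an unadjusted p below 0.05.

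Of 770 recomputed estimates 58 changed sign, in 25 genes, and the cause was not tested. None of the 25 passed an adjusted p of 0.05 in the main fit, as for all genes tested. The largest main log2 fold change among them was 0.69 in absolute size. Library size only gave log2 fold changes of 0.18 for F5, 0.13 for F10, 0.01 for F11, 0.02 for Ggcx, 0.08 for Serpind1, 0.16 for Plg, 0.08 for Plaur, 0.00 for Serpinf2 and 0.15 for Hrg. Quality weights gave 0.11 for F5, -0.02 for F12, -0.05 for Kng1, -0.06 for Apoh and 0.00 for Plg. Fga was at -0.01 with limma-voom and with the replicate block. Without control 2 and PB-MP 3 together, F5 was at 0.23, F12 at -0.07, F13a1 at 0.13, Kng1 at -0.09, Kng2 at -0.00, Serpina10 at -0.05, Apoh at -0.12, Plg at 0.02, Plat at 0.06 and Cpb2 at -0.05. With 1 library left out the ranges were -0.02 to 0.13 for F2, -0.25 to 0.23 for F5, -0.10 to 0.65 for F8, -0.00 to 0.15 for F9, -0.07 to 0.12 for F12, -0.10 to 0.11 for F13b, -0.13 to 0.18 for Fga, -0.08 to 0.08 for Kng1, -0.07 to 0.09 for Kng2 and -0.48 to 0.07 for Ggcx. They were -0.13 to 0.46 for Proc, -0.35 to 0.37 for Proz, -0.04 to 0.11 for Serpina10, -0.11 to 0.18 for Tfpi, -0.07 to 0.10 for Apoh, -0.21 to 0.12 for Plg, -0.85 to 0.50 for Plat, -0.44 to 0.21 for Plaur and -0.25 to 0.11 for Hrg.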
